A study of Mus musculus with 6 samples.

Results

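The Rnf8 knockout effect common to both germ cell stages was taken as the difference between 3 arrays of Rnf8 knockout (KO) cells and 3 arrays of wild-type (WT) cells, with the cell type as an additive term. All 6 of the 6 arrays of the series entered, and 17925 genes were tested on each. The arrays were 2 of WT and 2 of KO pachytene spermatocytes, and 1 of WT and 1 of KO round spermatids. All cells came from mice of the C57BL/6 strain background. The KO cells are given as Rnf8-KO, with no allele or age in the labels. Cells were enriched by gravity sedimentation from pools of 3 to 4 males, with a stated purity above 95%, and total RNA was hybridised to Affymetrix MoGene 1.0 ST arrays. No label ties the arrays of a group to separate pools. The spread behind each p-value is therefore that between arrays, and may be technical. In the additive fit it also holds any difference of the KO effect between the cell types. Values are log2 intensities, and every difference is KO minus WT on that scale unless said otherwise.

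RNF8 is a RING-type ubiquitin ligase that is recruited to DNA breaks through phosphorylated MDC1 and starts a ubiquitin signal on chromatin that RNF168 extends. In the testis it also marks the X and Y chromosomes, which are transcriptionally silenced in pachytene spermatocytes, and a subset of genes on them is switched on again in haploid round spermatids. The comparison asks which transcripts differ without Rnf8 in the same way before and after the meiotic divisions.

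The targeted gene was lower in all KO arrays, though its signal remained. Its 1 cluster is shared with Gm28043, a readthrough gene, and was kept out of the tests. The cluster read 8.51 and 8.86 in the WT pachytene arrays, 7.86 and 8.05 in the KO pachytene arrays, 7.78 in WT and 7.50 in KO round spermatids. All KO arrays were below the WT arrays of their cell type, by 0.74 on average in pachytene spermatocytes and 0.28 in round spermatids. Which exons its probes cover is not known here, and the remaining signal therefore does not check the deletion itself. The labelled cell types carried their markers: the summed intensity of 14 spermatid genes was 43071 to 56308 over the 4 pachytene arrays and 78155 to 80536 over the 2 round spermatid arrays. The summed intensity of 13 pachytene genes was 52998 to 58666 in the former and 31158 to 31826 in the latter.

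The 2 KO pachytene arrays differed from each other in a way that touches the small differences below. Autosomal genes with a spermatid excess, meaning a mean over both genotypes at least 2-fold above that of the pachytene arrays, lay at a median of 0.26 above WT in KO pachytene array 1 and -0.18 in array 2. In the KO round spermatid array the same 1116 genes lay at -0.13. The spermatid marker sum was highest among the pachytene arrays in KO array 1 (56308) and lowest in KO array 2 (43071), with 47930 and 44173 in the WT arrays. In bulk samples, fewer cells of a type and less RNA per cell cannot be told apart.

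No gene passed an adjusted p of 0.05 in limma's additive fit (0 of 17925, 0%). The smallest adjusted p was 0.0582, for the Y-linked gene Srsy, and 3 genes were under 0.1: Srsy, the X-linked Ppp4r3c-ps (0.0756) and the cytokine gene Il9 (0.0742). At an unadjusted p under 0.05, 470 genes (2.62% of those tested) were higher and 509 (2.84%) lower in KO. With 12 arrangements of genotype within cell type, an exact two-sided permutation test of a single gene cannot go below 0.167. Leaving out KO pachytene array 1 brought 21 genes past the adjusted threshold, and leaving out KO pachytene array 2 brought 4, which were Srsy, Ppp4r3c-ps, Il9 and Zfa-ps.

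Genes were therefore described by the order of their arrays. In 1949 genes (10.9%) both KO pachytene arrays lay above both WT pachytene arrays and the KO round spermatid array above its WT partner. In 1271 genes (7.09%) all lay below. Were genotype without effect, a gene would take 1 or the other of these orders with a probability of 0.167. The counts alone therefore show no KO effect. With a difference of 1.5-fold or more added, 27 genes were higher (0.151%) and 85 lower (0.474%), 112 in all. At 2-fold or more, 4 were higher and 21 lower. The median difference of all genes was 0.04. The genes nearest the 1.5-fold limit were Pgf at -0.59 just inside it and Speer4a at -0.58 just outside. Leaving out KO pachytene array 1 raised the lower count to 247 and the higher to 44, leaving out WT pachytene array 1 raised the lower count to 154, and leaving out KO pachytene array 2 raised the higher count to 48. Of the 112 genes, 79 were still in the set without KO pachytene array 2, 107 without KO pachytene array 1, and 84 without the round spermatid arrays. Leaving out an array can only relax the order rule, so a gene leaves the set only through the 1.5-fold limit.

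Most lower genes were autosomal, but they made up a larger share of the X-linked genes than of the autosomal genes. Of the 85, 28 were X-linked, 1 was Y-linked and 56 were autosomal. This is 4.49% of the 624 X-linked genes tested and 0.325% of the 17217 autosomal genes. Among the higher genes 1 was X-linked and 26 were autosomal. All 28 X-linked lower genes had higher levels in round spermatids than before meiotic division, 25 of them by 2-fold or more. Of the 158 X-linked genes with such a spermatid excess 25 (15.8%) were lower, against 4 of 1116 autosomal genes with the same excess (0.358%) and 3 of the other 466 X-linked genes. The median difference of all X-linked genes was 0.05, against 0.04 for autosomes, and the sign of that gap turned under a second quantile normalization. The count of X-linked lower genes was 43 without WT pachytene array 1 and 58 without KO pachytene array 1. Without KO pachytene array 2, 26 of the 28 were still in the set, and 18 without the round spermatid arrays. Only the 1.5-fold limit could remove the others, as the order rule is relaxed with fewer arrays.

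**Figure D1:**
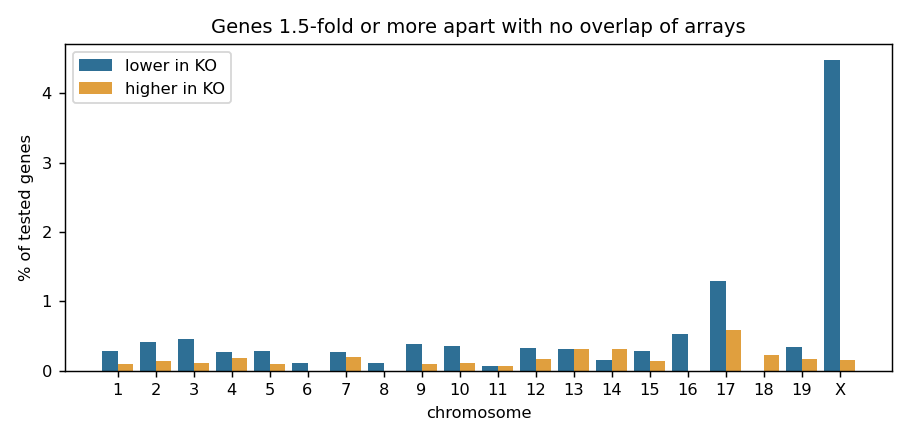
Percent of tested genes on each autosome and on X whose KO and WT arrays do not overlap within either cell type and differ by 1.5-fold or more, lower (blue) and higher (orange) in KO. The X chromosome stands at 4.49% lower, and chromosome 17 at 1.30% lower and 0.589% higher. The 9 tested genes of Y are not drawn.

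Promoters of 4 named genes, 3 lower and 1 higher, are shown so that their base composition can be read beside the values that follow. Each spans 250 bases before to 50 after the RefSeq transcription start (GRCm38.p6), written 5′ to 3′ on the strand of the gene, with CG dinucleotides in capitals. CG reads the same on both strands. Srsy is at chrY:17937281-17937580 on the minus strand, Samt3 at chrX:86043949-86044248 on the plus strand, H2ab1 at chrX:117014507-117014806 on the plus strand and Il9 at chr13:56482208-56482507 on the minus strand.
Srsy: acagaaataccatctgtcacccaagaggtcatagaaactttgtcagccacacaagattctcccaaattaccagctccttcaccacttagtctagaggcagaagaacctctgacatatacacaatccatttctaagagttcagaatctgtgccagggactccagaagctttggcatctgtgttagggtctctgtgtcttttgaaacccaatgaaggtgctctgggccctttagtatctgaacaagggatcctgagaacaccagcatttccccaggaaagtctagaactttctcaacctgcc
Samt3: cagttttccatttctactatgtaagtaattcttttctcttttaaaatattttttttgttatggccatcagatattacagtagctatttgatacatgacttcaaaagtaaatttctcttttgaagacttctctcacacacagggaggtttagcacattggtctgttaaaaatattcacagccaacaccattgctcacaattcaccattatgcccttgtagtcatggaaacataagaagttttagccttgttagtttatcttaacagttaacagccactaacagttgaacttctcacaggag
H2ab1: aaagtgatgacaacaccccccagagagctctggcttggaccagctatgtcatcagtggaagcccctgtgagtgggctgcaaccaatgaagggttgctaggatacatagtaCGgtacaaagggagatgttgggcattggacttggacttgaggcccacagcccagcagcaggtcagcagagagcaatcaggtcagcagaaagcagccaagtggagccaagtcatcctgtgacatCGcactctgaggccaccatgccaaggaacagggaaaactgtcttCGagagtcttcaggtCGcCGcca
Il9: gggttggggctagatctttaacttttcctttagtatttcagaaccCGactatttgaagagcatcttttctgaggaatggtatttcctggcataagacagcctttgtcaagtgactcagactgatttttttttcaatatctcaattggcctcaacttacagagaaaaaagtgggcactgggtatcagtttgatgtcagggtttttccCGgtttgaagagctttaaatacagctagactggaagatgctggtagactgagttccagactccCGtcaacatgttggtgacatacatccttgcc
The windows of Srsy and Samt3 hold 0 CG, that of Il9 holds 3 and that of H2ab1 holds 5. Among 32851 promoters of the table, 5.43% hold none and the median is 7. Only 22 of the 29 lower X- and Y-linked genes had an entry, under the share needed for a comparison of the group, so none was made.

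Srsy, a serine-rich gene of the Y chromosome with related copies, had the smallest p. It read 10.76 and 10.50 in WT pachytene arrays, 8.74 and 8.03 in KO pachytene arrays, 11.87 in WT and 9.82 in KO round spermatids. All 3 KO arrays lay below all 3 WT arrays, and the KO round spermatid array did not reach the level of the WT pachytene arrays. The additive difference was -2.18 (SE 0.18, 3 against 3 arrays), or 4.53-fold. Zfy1, the Y-linked zinc finger gene, lay at -0.79, but its KO pachytene array 1 (7.45) was between the WT arrays (7.31 and 7.67). Of 9 Y-linked genes tested, Srsy and the testis-determining gene Sry (-0.15) had no overlap, both lower. That is 22.2%, against 7.09% of all genes, but 9 genes are few. Sry differed by only -0.08 in round spermatids. Probes of multicopy Y and X genes can read several copies, so the values of Srsy, and of the Samt, Ssxb and H2ab families below, may pool them.

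The X-linked gene with the largest difference was Ppp4r3c-ps, named as a pseudogene of a protein phosphatase 4 regulatory subunit. It read 7.49 and 7.87 in WT pachytene arrays, 6.23 and 5.66 in KO pachytene arrays, 10.03 in WT and 7.72 in KO round spermatids, a difference of -1.92 (SE 0.20). The KO round spermatid array lay at the level of the WT pachytene arrays. Fndc3c1, a fibronectin type III domain gene, read 7.03 and 7.22 in WT against 6.04 and 6.57 in KO pachytene arrays, and 9.46 against 6.37 in round spermatids. Its KO levels were alike in both cell types and close to the lower quartile of the arrays, which was 6.15 to 6.28. The clone-named gene 4930595M18Rik had the same layout, with 6.92 and 6.88 against 5.80 and 5.98 in pachytene spermatocytes and 9.04 against 6.27 in round spermatids. In 13 of the 28 X-linked lower genes at least 1 KO array was at or under that quartile, where a difference may be understated.

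**Figure D2:**
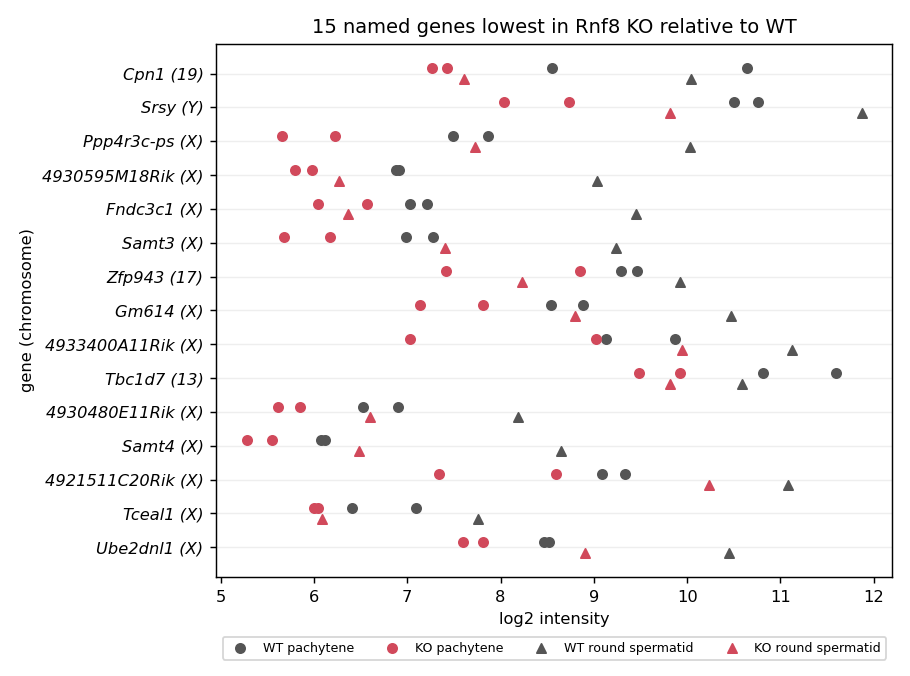
Log2 intensity on each array of the 15 named genes with the largest lower values in KO, with the chromosome in brackets. Circles are pachytene and triangles round spermatid arrays, grey WT and red KO. In every gene the red symbols lie left of the grey symbols of the same shape, with Cpn1 at -2.31 and Ube2dnl1 at -1.04.

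Members of 3 X-linked families of spermatids stood among the lower genes. Samt3 and Samt4 encode multipass membrane proteins of spermatogenic cells. Samt3 read 6.99 and 7.28 in WT and 6.18 and 5.68 in KO pachytene arrays, and 9.24 in WT and 7.41 in KO round spermatids, a difference of -1.42 (SE 0.19). Samt4 was at or under the lower quartile on all 4 pachytene arrays and read 8.65 in WT and 6.48 in KO round spermatids. Ssxb2, Ssxb3 and Ssxb10, of the Ssx family of nuclear proteins, lay at -0.67, -0.71 and -0.68. Ssxb3 was at or under the lower quartile on all 4 pachytene arrays, so its value rests on the round spermatid arrays (7.59 in WT, 5.93 in KO). All 6 tested genes of the family were below WT, 5 of them without overlap. Of all genes 62.2% lay above WT, and 7.09% were lower without overlap. The family was picked after its values were seen. The ubiquitin-conjugating enzyme-like genes Ube2dnl1 and Ube2dnl2 lay at -1.04 and -0.87. Prame, a leucine-rich repeat gene also active in tumours, read 8.83 and 8.77 in WT and 8.11 and 7.73 in KO pachytene arrays, and 10.94 and 9.66 in round spermatids (-1.01, SE 0.14). The groups of Samt3, Ube2dnl1 and Prame did not overlap in either cell type, and the gap was wider in round spermatids for all of them.

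H2ab1, an X-linked short histone H2A variant of spermatids, had one of the more even differences. It read 9.65 and 9.81 in WT pachytene arrays, 8.71 and 8.53 in KO pachytene arrays, 11.18 in WT and 10.43 in KO round spermatids. The difference was -0.99 (SE 0.12, adjusted p = 0.125 in limma), or 1.98-fold. Of the 45 tested genes of histone variants and spermatid chromatin, 3 were lower (6.67%) and 5 higher (11.1%) without overlap, near the 7.09% and 10.9% of all genes, and the median was 0.03. H1f6, the testis linker histone H1t on an autosome, lay at -0.67 (SE 0.16) with arrays of 12.56 and 12.34 against 11.88 and 11.40 in pachytene spermatocytes and 9.46 against 9.08 in round spermatids. H2al2a, another H2A variant, lay at 0.45. No member passed the adjusted threshold.

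In the list of X-linked spermatid genes, 38 of 67 members were tested, and 14 were lower and 5 higher without overlap (36.8% and 13.2%, against 7.09% and 10.9% of all genes). Like the other lists, it was chosen with earlier results of these data known, so these shares only describe it. The median was -0.25, against 0.04 for all genes, and 8 were lower by 1.5-fold or more. It was -0.48 without KO pachytene array 1 and -0.14 without the round spermatid arrays. Members at the other end were Akap14, an A-kinase anchoring protein gene (0.70), the acrosomal gene Spaca5 (0.44) and the deubiquitinase gene Usp26 (0.39). Among 61 widely expressed X-linked genes the median was 0.05, with 8 higher and 4 lower. The lower ones were the ubiquitin-conjugating enzyme gene Ube2a (-0.55), the O-GlcNAc transferase gene Ogt (-0.53), the Mediator subunit gene Med12 (-0.46) and Renbp (-0.24). Of the higher ones the polyadenylation factor gene Cstf2 stood at 0.41.

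In most X-linked lower genes the gap was wider in round spermatids, as it also was in 22 of the 57 other lower genes. In 22 of the 28 X-linked genes the round spermatid difference was the larger, with a median of -1.37 against -0.78 in pachytene spermatocytes. The 56 autosomal lower genes had medians of -0.61 and -0.80. In 13 of the 28 X-linked genes at least 1 KO array was at or under its lower quartile, where a difference may be understated. Samt4 was so on all 4 pachytene arrays, 4930595M18Rik on both KO pachytene arrays and Fndc3c1 on KO pachytene array 1. The genotype by cell type interaction was under the adjusted threshold for 0 of 17925 genes in limma (0%), and 130 had an unadjusted p under 0.05. The spread in that fit comes from the pachytene arrays alone, as each genotype had 1 round spermatid array. With autosomal clone names left out, the most negative interactions were Fndc3c1 (-2.27), 4930595M18Rik (-1.76), the zinc finger gene Unkl (-1.66), Samt4 (-1.49) and the homeobox gene Rhox11 (-1.48). Unkl, on chromosome 17, read 9.02 and 9.24 in WT and 8.54 and 8.80 in KO pachytene arrays, against 10.52 and 8.39 in round spermatids. Leaving out KO pachytene array 2 raised the 130 to 2314 and leaving out KO pachytene array 1 raised it to 577, and leaving out WT pachytene array 1 or 2 lowered it to 48 or 49.

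**Figure D3:**
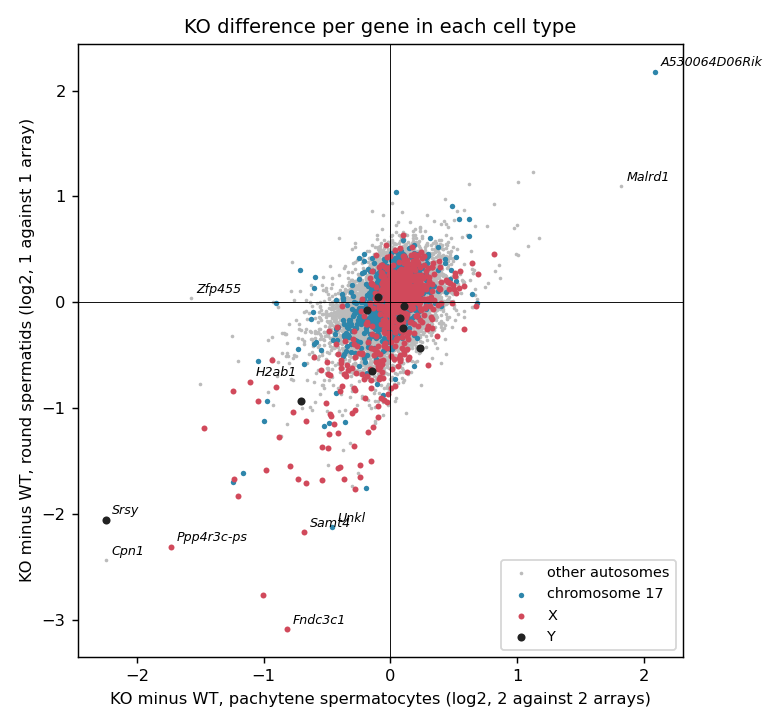
KO minus WT difference (log2) of each tested gene in pachytene spermatocytes (x axis, 2 against 2 arrays) and in round spermatids (y axis, 1 against 1 array), grey for autosomes, blue for chromosome 17, red for X and black for Y. X-linked points extend downward, as with Fndc3c1 at -0.82 and -3.09, while Srsy lies at -2.24 and -2.05.

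The cell types share no array, so the genes apart in one can be read in the other. Both round spermatid arrays carry the number 2 in their titles, as KO pachytene array 2 does. The labels do not say whether arrays of the same number share a pool of males. Of 98 genes lower by 1.5-fold or more without overlap in pachytene spermatocytes, 87 were also below WT in round spermatids (88.8%, against 40.9% of all genes), with a median of -0.50 there. Of 37 higher genes 34 were also above (91.9%, against 59.1%), with a median of 0.44. Of 273 genes lower by 1.5-fold or more in round spermatids, 238 lay below WT in pachytene spermatocytes (87.2%, against 40.1%), and of 70 higher genes 63 lay above (90.0%, against 59.9%). Across all genes, which are not independent replicates, the differences of the cell types had Pearson's r of 0.47 and Spearman's rho of 0.39. That correlation lay with 1 array: KO pachytene array 2 alone gave r of 0.62, and KO pachytene array 1 alone gave -0.05. Spearman's rho was 0.63 and -0.20. For X-linked genes r was 0.67 with array 2 and 0.37 with array 1, and rho was 0.64 and 0.10.

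Autosomal genes of the lower set had varied roles. Cpn1, the catalytic subunit gene of carboxypeptidase N, had the largest value, at -2.31 (SE 0.45). It read 8.55 and 10.64 in WT pachytene arrays, 7.43 and 7.27 in KO pachytene arrays, 10.05 in WT and 7.61 in KO round spermatids. The KO arrays were alike while the WT pachytene arrays stood far apart, so the size is uncertain. Tbc1d7, a subunit gene of the TSC complex that restrains mTORC1, read 10.81 and 11.60 against 9.92 and 9.49 in pachytene spermatocytes and 10.59 against 9.82 in round spermatids. Mrps21, a mitochondrial ribosome gene, lay at -0.94, the nuclear long non-coding RNA gene Malat1 at -0.93 and the carboxypeptidase inhibitor gene Lxn at -0.93. Mrps21 differed more in pachytene spermatocytes (-1.25) than in round spermatids (-0.32).

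The higher genes were fewer and nearly all autosomal. Malrd1, which encodes a protein with MAM and LDL receptor domains, read 6.41 and 6.35 in WT and 8.62 and 7.78 in KO pachytene arrays, and 6.66 in WT and 7.76 in KO round spermatids (1.58, SE 0.23). Il9, the interleukin 9 gene, read 8.26 and 8.13 against 9.24 and 9.16, and 8.09 against 9.22 (1.05, SE 0.10, adjusted p = 0.0742 in limma). WT levels of both genes were alike in the cell types. Zfa-ps, an autosomal retrocopy of the X-linked Zfx gene, read 8.01 and 8.10 against 9.38 and 8.97 in pachytene spermatocytes and 6.23 against 7.46 in round spermatids (1.16, SE 0.13). It was the 1 member higher without overlap among 12 tested autosomal retrogenes of X-linked parents, of which Timm8a2 (-0.34) and Pdha2 (-0.13) were lower.

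Among the other higher genes were Tmem159 (0.99) and Fitm1 (0.91), both of which act in lipid droplet formation. Fitm1 read 9.03 and 9.17 in WT and 10.11 and 10.08 in KO pachytene arrays, and 9.90 and 10.62 in round spermatids. Its KO pachytene arrays nearly coincided and all lay above WT. Atp8b1, a phospholipid flippase gene, lay at 0.90, and the receptor gene Cntfr of ciliary neurotrophic factor at 0.85. Fnbp1l, an F-BAR protein gene, lay at 0.82, Rundc3a at 0.78, the natriuretic peptide clearance receptor gene Npr3 at 0.68 and the endocytic recycling gene Ehd3 at 0.68. Cdh17, a cadherin gene, was at 0.69 but at or under the lower quartile on 4 of the arrays. Akap14 was the X-linked member, with 8.65 and 8.67 against 9.74 and 9.22 in pachytene spermatocytes and 10.77 against 11.23 in round spermatids.

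**Figure D4:**
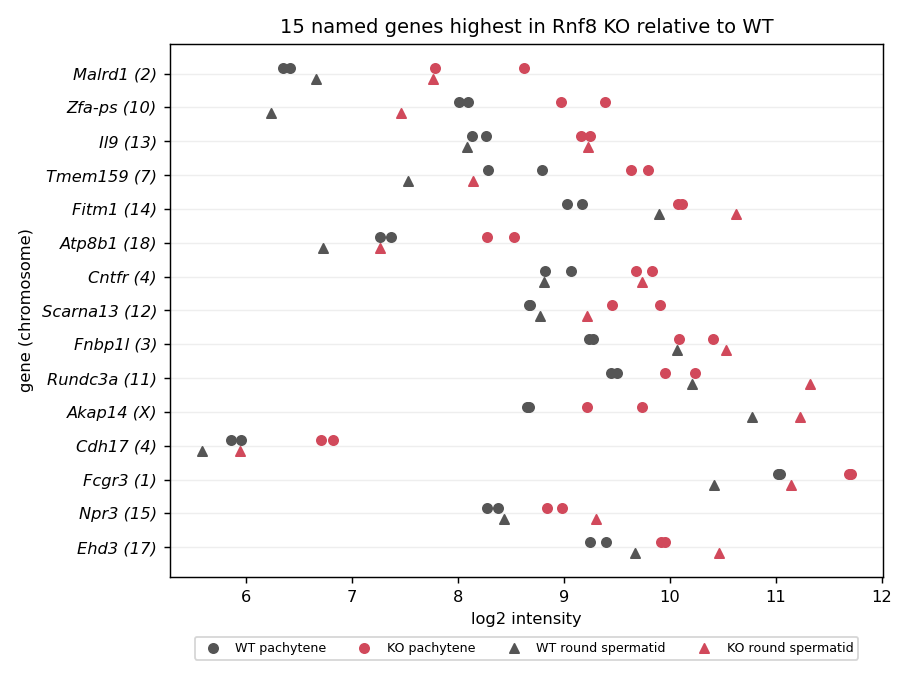
Log2 intensity on each array of the 15 named genes with the largest higher values in KO, drawn with the same symbols as the lower genes. In every gene the red symbols lie right of the grey symbols of the same shape, from Malrd1 at 1.58 to Ehd3 at 0.68.

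Chromosome 17, which carries Rnf8, held 16 of the 112 genes, 1.88% of its 849 tested genes, while the other autosomes held 0.109% to 0.623%. There were 11 lower and 5 higher. The lower ones included the zinc finger genes Zfp943 (-1.39) and Zfp942 (-1.04). A530064D06Rik, singled out after its values were seen, had the largest higher value of all genes (2.12), although its WT pachytene arrays read 7.99 and 6.58. The genes next to Rnf8 did not supply these counts. Of the 10 nearest tested genes on each side, 0 of 20 were in the set, though at the chromosome's share of 1.88% few would be. Without overlap 6 of the 20 were higher, among them Glo1 (0.41), the dynein gene Dnah8 (0.31) and Ppil1 (0.26), and 0 were lower. The shares were 12.4% higher and 9.78% lower over chromosome 17, and 10.9% and 7.09% over all genes. Of the nearest 100 on each side 1 gene was in the set, and 15 lay farther away.

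The partners of RNF8 in ubiquitin signalling had a median near 0, with 13 above and 24 below WT, while 62.2% of all genes lay above. Of 37 tested genes 5 were higher and 3 lower without overlap (13.5% and 8.11%), with a median of -0.02. Ube2a, a RAD6 homologue, was the 1 member at an unadjusted p under 0.05. The RNF168 gene lay at -0.15, Ube2b at 0.01, the BRCA1 partner gene Bard1 at -0.49, lower on both KO pachytene arrays but not in round spermatids (7.68 in WT, 7.78 in KO), L3mbtl2 at 0.24 and the SAGA deubiquitinase gene Usp22 at 0.21. DNA damage checkpoint genes (52 tested) had a median of -0.02, with 22 above and 30 below WT. Without overlap 3 were higher and 4 lower, with Etaa1, an activator of ATR, at -0.35 among the lower ones. The Fanconi anemia gene Fance, at 0.35 with overlapping arrays, was the 1 member at an unadjusted p under 0.05. Meiotic prophase genes (47 tested) had a median of -0.01, with 3 higher and 2 lower. The 29 piRNA pathway genes had a median of -0.01 with 4 higher and 2 lower, and the 81 spermatid differentiation genes 0.03 with 7 higher and 6 lower. No member of these lists passed the adjusted threshold. Over these lists the shares without overlap ran from 5.77% to 13.8% higher and from 4.26% to 8.11% lower, around those of all genes.

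Among 32 p53 targets and apoptosis genes, 7 were higher (21.9%) and 1 lower (3.13%) without overlap, with a median of 0.10 and 27 members above WT. The apoptosis activator gene Bid stood at 0.45 and the stress gene Sesn2 at 0.32. Of all genes, 62.2% lay above WT, and 10.9% were higher and 7.09% lower without overlap. Some marker lists of other testis cells also lay above WT. Sertoli cell markers lay above WT in 27 of 28 genes with a median of 0.15, and 5 were higher and 0 lower without overlap, led by Amhr2 (0.38) and Vim (0.33). Their summed intensity was 16703 and 14515 in WT and 17694 and 17310 in KO pachytene arrays, and 10500 in WT and 12096 in KO round spermatids. Without WT pachytene array 1 their median was 0.23. Spermatogonial markers had a median of 0.13 with 9 of 39 higher (23.1%) and 0 lower, and the median was 0.08 without KO pachytene array 2. Peritubular and vessel markers had a median of 0.16 with 8 of 27 higher (29.6%) and 2 lower (7.41%). The median was 0.25 without KO pachytene array 1, 0.11 without array 2 and 0.10 without the round spermatid arrays. By array it was 0.004 in KO pachytene array 1, 0.18 in array 2 and 0.25 in the KO round spermatid array. The KO pachytene sums (12162 and 12330) lay between the WT pachytene sums (12720 and 11860). The round spermatid arrays summed to 14924 (WT) and 16450 (KO). Leydig cell markers did not lie to one side: 7 of 13 were above WT, 1 was higher and 1 lower without overlap, and the median was 0.07, with -0.16 in KO pachytene array 1. The steroidogenic gene Hsd3b6 lay at -0.43 and Cyb5a at -0.40. Of 20 macrophage and blood markers 15 lay above WT and 5 below, with a median of 0.06. Only the Fc receptor gene Fcgr3 was higher without overlap (0.69), and 0 were lower. Its arrays read 11.02 and 11.04 against 11.69 and 11.71, and 10.41 against 11.14. The list, Fcgr3 included, summed to 5418 and 5583 on WT and 7122 and 7007 on KO pachytene arrays. The round spermatid sums were 7482 (WT) and 8232 (KO). The list median was -0.05 in KO pachytene array 1, 0.16 in array 2 and 0.03 in the KO round spermatid array. Of the markers tested in these 5 lists, 0 were at or under the lower quartile on every array. The part of other cells in the higher genes was not tested.

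**Figure D5:**
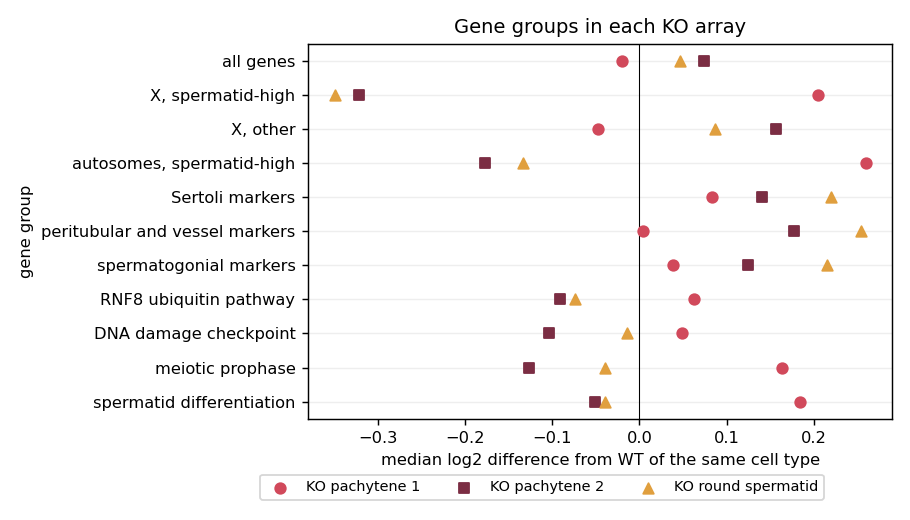
Median log2 difference from WT of the same cell type for groups of genes, for KO pachytene array 1 (circles), KO pachytene array 2 (squares) and the KO round spermatid array (triangles). X-linked spermatid-high genes lie at 0.20, -0.32 and -0.35 and their autosomal counterparts at 0.26, -0.18 and -0.13, with array 1 on the other side of 0, while Sertoli markers lie at 0.08, 0.14 and 0.22.

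The medians of groups differed between the KO pachytene arrays. X-linked genes with a spermatid excess had a median of 0.20 in KO pachytene array 1, -0.32 in array 2 and -0.35 in the KO round spermatid array. Their 25 members of the lower set, Ppp4r3c-ps, Samt3, Prame and H2ab1 among them, lay below both WT arrays in both KO pachytene arrays, as the choice of the set requires.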

How the data were processed

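Intensities on a linear scale were deposited by the authors, with RMA in Affymetrix Expression Console 1.1, per the submitters' processing notes. No source used here names the annotation build. The log2 of the deposited intensity was taken here. Of 35556 transcript clusters, 21789 had 1 gene symbol in the platform annotation, 1621 had several and 12146 were not listed; 21698 matched RefSeq (GRCm38.p6), used for names, chromosomes and gene order. The cluster of highest mean stood for each gene, and the 17925 genes that reached log2 6 on any array were tested. limma 3.58.1 in R 4.3.3 fitted genotype plus cell type (3 residual degrees of freedom), and a fit with 4 groups gave the interaction, both with Benjamini-Hochberg adjustment at 0.05. The script was tested on simulated data with 200 changed genes. At the adjusted threshold the additive fit recovered 0 of them at 1.5-fold, 138 at 2-fold and 192 at 4-fold. Changes of 1.5-fold were thus out of its reach there. Median array intensity was 197 to 218, and the number of arrays limits the precision. Same-numbered pachytene arrays did not deviate together (correlation -0.23), so the main fit has no block. Named genes were the 15 largest differences in each direction with no overlap and an unadjusted p under 0.05, the 5 smallest p-values in each direction, up to 5 members of each list, further members by role, the 5 largest interactions in each direction and up to 3 neighbours of Rnf8; autosomal clone names and olfactory or vomeronasal receptors were counted. Mrps21, Malat1, Lxn, Zfp942 and the Ssxb, Ube2dnl2 and Renbp genes and Fance were added after their values were seen. The members and lists were chosen with earlier results of these data known.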

Additional observations from a re-analysis of the deposited data

Results flagged for a closer look

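In 5 genes of the naming rule every KO pachytene array was lower than either WT pachytene array, while the KO round spermatid array lay above its WT partner. The interaction, the round spermatid difference minus the pachytene difference on the log2 scale, was 1.61 for the zinc finger gene Zfp455, 1.15 for the membrane protein gene Ifitm7 and 0.93 for the small nucleolar RNA Snord57. Zfp455 read 6.81 and 7.13 in WT and 5.54 and 5.25 in KO pachytene arrays, but 5.18 and 5.22 in round spermatids. Ifitm7 read 11.44 and 11.16 against 10.31 and 10.73, and 8.49 against 8.87. Snord57 read 11.40 and 11.20 against 10.46 and 10.29, and 11.02 against 11.03. The round spermatid arrays and the KO pachytene arrays of Zfp455 lay under the lower quartile of the arrays (6.15 to 6.28), where a lower KO level in round spermatids may not be measurable. The BRCA1 partner gene Bard1 had an interaction of 0.88 and the prostaglandin D synthase gene Ptgds 0.67. The opposite layout, higher in KO pachytene arrays and lower in the KO round spermatid array, held for 3 genes: Pgk2 (-0.43), H2-Aa (-0.36) and Aif1 (-0.32). Their differences in round spermatids were only -0.034, -0.007 and -0.012, so the arrays there were nearly level. In limma's interaction test the adjusted p of each of these 8 genes was 1.00.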

How the results depend on the processing

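The count of genes past the adjusted threshold was 0 under a second quantile normalization, without the filter on dim genes, with a filter at log2 7 and with the mean of all clusters of a gene. It was 1 with a pseudocount of 32 (Srsy), 2 with a trended and robust prior (Srsy and Ppp4r3c-ps), 1 with equal weight of the cell types (4930595M18Rik) and 2 with the replicate block (Srsy and A530064D06Rik). A block with the pachytene numbers crossed, chosen after seeing the data, gave 28. Leaving out each array in turn gave 0 to 21. The 979 genes at an unadjusted p under 0.05 became 605 with equal weight, 1488 with the crossed block and 430 to 5678 with an array left out. Leaving out arrays gave 2662 to 7586 higher and 1822 to 3819 lower genes without overlap, 30 to 48 higher and 65 to 247 lower at 1.5-fold or more, 19 to 58 X-linked lower and 48 to 2314 at an unadjusted interaction p under 0.05. Counts of genes without overlap can only rise when an array is left out, because the order rule is then relaxed. The X minus autosomal median was 0.00967, reversed to -0.0235 under the second quantile normalization, and lay between -0.00256 and 0.0287 with an array left out. List medians with an array left out were -0.48 to -0.14 (X-linked spermatid genes), 0.11 to 0.23 (Sertoli) and 0.10 to 0.25 (peritubular and vessel). Among named genes, 1578 values kept side and direction, 34 newly passed the threshold and 4 reversed, all with an array left out: Cd74 (-0.102 to 0.349) and Ubl4b (-0.00884 to 0.429) without KO pachytene array 1, and Kdm5d (-0.028 to 0.117) and Rad1 (-0.529 to 0.00926) without array 2. The cause was not tested. Without either round spermatid array the comparison is of pachytene arrays alone.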

Other observations

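Small nucleolar and Cajal body RNAs, which guide the chemical modification of ribosomal and spliceosomal RNA, were noticed after their values were seen and are described with no test. Of 45 tested, 17 were lower (37.8%) and 1 was higher without overlap, and 6 were lower by 1.5-fold or more, with a median of -0.15. Over all genes 7.09% were lower and 10.9% higher without overlap, and 0.474% were lower by 1.5-fold or more. The median was -0.17 and -0.23 in the KO pachytene arrays and -0.10 in the KO round spermatid array, so all 3 KO arrays lay on the same side. The 1 higher member was Scarna13 (0.82), with arrays of 8.68 and 8.67 against 9.91 and 9.46 in pachytene spermatocytes and 8.77 against 9.21 in round spermatids.

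Among the 748 autosomal genes at least 2-fold lower in round spermatids than in pachytene spermatocytes, 13 were lower by 1.5-fold or more without overlap (1.74%) and 3 were higher (0.401%), against 0.325% and 0.151% of all autosomal genes.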
